A study of Mus musculus with 24 samples.

Results

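Cytip, Pacsin1, Pik3ip1, Nfam1, Scin and Ms4a6c are 6 of the 21669 genes of a mouse read-count table, grouped as genes that fall when RAW-Blue macrophages receive CpG. They were picked on measured values, the levels in RAW-Blue with and without CpG, so each difference between a RAW-Blue CpG group and untreated cells is a description, given with no p-value and used to support nothing. The description holds for only part of the set. In the counts Cytip, Pacsin1 and Pik3ip1 were several fold lower with CpG, and Nfam1 was lower by a smaller amount. Ms4a6c was as high with free CpG as without it and was lower in all 3 groups that held carbon nanotubes. Scin went the other way, with about 12.2 times the untreated level after CpG, and so is not a gene lowered by CpG in these files. All 6 rows passed the low-count filter in RAW-Blue, where 11514 genes were tested.

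RAW-Blue cells are RAW 264.7 mouse macrophages that carry an integrated secreted phosphatase reporter for NF-kB and AP-1. K-Luc, the second line, is a luciferase-expressing derivative of the C57BL/6 glioma line KR158B. Both were plated for a migration assay in a dish with a culture insert, left to adhere for 24 h and then treated, RAW-Blue for 47 to 50 h and K-Luc for 17 to 19 h. The 5 groups of each line received water (untreated), the oligonucleotide CpG-28 at 10 µg/mL (CpG), single-walled carbon nanotubes dispersed in lipid-PEG2000-OMe at 10 µg/mL of each (SWNT/LP), CpG-28 and SWNT/LP together at those doses (CpG+SWNT/LP), or nanotubes dispersed in CpG-28 itself at 10 µg/mL of each (SWNT/CpG). RAW-Blue had 2 libraries in each group, and K-Luc had 2 untreated libraries and 3 of every other group. Each line is a single established culture line, and the labels do not say that replicates came from separate cultures, so the p-values below measure a spread that may be technical. No group received an oligonucleotide without CpG. None received lipid-PEG without nanotubes, so in SWNT/LP and CpG+SWNT/LP the parts of nanotubes and lipid-PEG cannot be told apart. Cell line and treatment time differ together, so their parts in any difference between the lines cannot be told apart.

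RAW-Blue libraries held 17.2 to 20.3 M counts and K-Luc libraries 13.3 to 24.1 M. Of 16 macrophage markers, 15 averaged at least 1 CPM (counts per M counts of the library) in RAW-Blue and 1, C1qa, was at 0 in every RAW-Blue library. Their summed level ran from 9140 to 10100 CPM in RAW-Blue and from 11.9 to 17.7 CPM in K-Luc. The summed macrophage markers of the RAW-Blue CpG libraries (9560 and 9620 CPM) lay within the range of the untreated ones (9280 and 10100 CPM). That sum does not show that each marker stayed level: Itgam, one of them, was higher with CpG (below). Summed glial markers, of which 1 of 10 averaged at least 1 CPM in RAW-Blue, differed between its groups: 11.6 to 13.4 CPM untreated, 16.8 to 17.3 with CpG, 21.4 to 22.4 with SWNT/LP, 17.9 to 22.9 with CpG+SWNT/LP and 25.4 to 26 with SWNT/CpG. Each treated group lay above untreated cells, while CpG+SWNT/LP overlapped SWNT/LP and SWNT/CpG lay above both. The glial sum was mostly Nes (mean 18.3 CPM, with Cspg4 next at 0.613), so it largely describes that gene. Its part in the results below was not tested. In K-Luc 8 of 8 mesenchymal and 5 of 10 glial markers averaged at least 1 CPM.

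CpG oligonucleotides are ligands of Toll-like receptor 9, an endosomal receptor of macrophages, B cells and dendritic cells that signals through MyD88 to NF-kB and AP-1. Cytip (cytohesin-interacting protein) binds cytohesins, the exchange factors that act on integrin adhesion, and Pacsin1 is an F-BAR protein that bends membranes during endocytosis and is best known from neurons. Pik3ip1 is a transmembrane inhibitor of phosphoinositide 3-kinase (PI3K), and Nfam1 is a receptor with an ITAM, the tyrosine motif through which Syk is recruited and NFAT is activated. Scin (scinderin, or adseverin) is a calcium-dependent actin-severing protein of the gelsolin family, and Ms4a6c is a member of the MS4A family of four-pass membrane proteins expressed in myeloid cells.

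All 6 genes have a promoter in RefSeq's tables (8 promoters, 3 of them of Nfam1), on GRCm38.p6. The counts themselves were made on mm9, so no coordinate below belongs to the count table. The 250 bases upstream of the start site are shown for the 3 genes that were lowest with CpG and for Scin, which moved opposite to them. Each runs 5′ to 3′ on the gene's own strand, and capitals mark the only match to any of 6 motifs searched on both strands.
Cytip, chr2:58160123-58160372, - strand: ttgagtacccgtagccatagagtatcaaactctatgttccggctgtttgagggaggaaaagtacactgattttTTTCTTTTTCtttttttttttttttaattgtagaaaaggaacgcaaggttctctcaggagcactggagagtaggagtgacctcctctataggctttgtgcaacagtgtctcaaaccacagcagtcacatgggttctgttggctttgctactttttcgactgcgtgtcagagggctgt
Pacsin1, chr17:27684989-27685238, + strand: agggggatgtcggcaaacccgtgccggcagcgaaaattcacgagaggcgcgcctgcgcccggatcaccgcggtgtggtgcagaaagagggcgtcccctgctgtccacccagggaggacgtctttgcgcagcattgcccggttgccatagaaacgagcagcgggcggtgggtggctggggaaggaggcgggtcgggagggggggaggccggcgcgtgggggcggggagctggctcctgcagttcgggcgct
Pik3ip1, chr11:3330481-3330730, + strand: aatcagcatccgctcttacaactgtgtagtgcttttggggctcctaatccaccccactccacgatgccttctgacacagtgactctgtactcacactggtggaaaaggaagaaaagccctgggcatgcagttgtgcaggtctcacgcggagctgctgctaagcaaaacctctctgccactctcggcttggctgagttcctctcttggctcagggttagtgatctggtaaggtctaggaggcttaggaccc
Scin, chr12:40134229-40134478, - strand: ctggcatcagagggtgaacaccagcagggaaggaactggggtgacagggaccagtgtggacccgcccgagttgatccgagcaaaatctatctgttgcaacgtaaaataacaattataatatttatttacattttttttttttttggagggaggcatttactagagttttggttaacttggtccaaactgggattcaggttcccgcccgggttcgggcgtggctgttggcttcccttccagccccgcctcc
The capitals in Cytip are the reverse strand of the interferon-stimulated response element searched here (GAAA, any 2 bases, GAAA), at position -177 from the start and inside a run of T. In Nfam1 the AP-1 letters TGANTCA occur once, as TGAATCA, at position -49 of 1 of its 3 promoters. No window of the other 4 genes held a match. Among all 32851 promoters of 300 bases in the table, the first motif occurred in 3.44% and TGANTCA in 7.81%. The other letters searched were GGG, any 2 bases, TTTCC (NF-kB, 1.63% of promoters), GAGGAAGT (PU.1, 3.2%), GTAAACA (FOXO, 3.65%) and CACGTG (E-box, 7.15%). In base composition the 4 printed windows ranged from 42.8% GC in Cytip through 49.2% in Scin and 53.6% in Pik3ip1 to 70.4% in Pacsin1, so the 3 genes that were lower together do not share a base composition there.

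Compared per length in the deposited RPKM of untreated RAW-Blue cells, Nfam1 was the most abundant of the set (mean 17.2 RPKM) and Ms4a6c (2.5), Pik3ip1 (2.05), Pacsin1 (1.05), Cytip (0.75) and Scin (0.35) followed. Cytip stood below Pacsin1 there although its untreated mean was 15 CPM against 7.37 for Pacsin1. Its place depends on the gene length behind the RPKM, which was not checked. With free CpG, Scin moved from last to the second place at 4.1 RPKM, while Cytip and Pacsin1 stood at 0.1. Apart from Nfam1, then, these are genes of low abundance in this line, and their counts are small.

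Cytip, the cytohesin partner, had 14.1 and 15.9 CPM in the 2 untreated RAW-Blue libraries (247 and 302 counts; levels of the 6 genes are in CPM with TMM-scaled library sizes). It had 3.02 and 2.60 CPM with free CpG, 7.29 and 7.75 with SWNT/LP, 1.64 and 1.37 with CpG+SWNT/LP, and 1.79 and 1.85 with SWNT/CpG. The group means from high to low were untreated, SWNT/LP, CpG, SWNT/CpG and CpG+SWNT/LP. No 2 of the 5 groups overlapped, but groups of 2 libraries can separate by chance, and the share of all genes that do so was not computed. Among the groups with CpG no difference of Cytip passed an adjusted p under 0.05. The fitted log2 difference from untreated was -2.41 ± 0.15 (SE) with CpG, -3.32 ± 0.17 with CpG+SWNT/LP and -3.04 ± 0.16 with SWNT/CpG, which is 5.33, 9.99 and 8.21 times lower. In such bulk libraries fewer cells that express a gene and less of its RNA per cell cannot be told apart, here or for the genes below.

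Pacsin1, the F-BAR protein, showed the largest distance between its 2 untreated libraries, at 5.48 and 9.26 CPM (96 and 176 counts). With free CpG it had 0.95 and 0.997 CPM, with SWNT/LP 5.37 and 4.86, with CpG+SWNT/LP 0.847 and 0.658, and with SWNT/CpG 0.983 and 1.15. The 3 CpG groups, each library with 13 to 23 counts, lay well below the other 2 groups, and the lower untreated library lay just above the SWNT/LP ones. Against untreated the log2 differences were -2.92 ± 0.30, -3.29 ± 0.31 and -2.78 ± 0.29 for CpG, CpG+SWNT/LP and SWNT/CpG. Free CpG and SWNT/CpG overlapped in level.

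Pik3ip1, the PI3K inhibitor, had 8.50 and 10.5 CPM in untreated RAW-Blue cells. It had 2.01 and 3.05 CPM with CpG, 6.06 and 5.47 with SWNT/LP, 1.36 and 1.11 with CpG+SWNT/LP, and 2.08 and 2.05 with SWNT/CpG. Its group means lay in the same order as those of Cytip, but CpG and SWNT/CpG overlapped. Among the groups with CpG no difference of Pik3ip1 passed an adjusted p under 0.05. The log2 differences from untreated were -1.91 ± 0.21 with CpG, -2.94 ± 0.23 with CpG+SWNT/LP and -2.20 ± 0.21 with SWNT/CpG.

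Nfam1, the ITAM receptor, was lower by a far smaller factor but on many more counts, 861 to 1559 in each library. Its levels were 85.6 and 82.1 CPM untreated, 65.0 and 57.1 with CpG, 61.0 and 60.9 with SWNT/LP, 54.1 and 55.0 with CpG+SWNT/LP, and 49.8 and 48.4 with SWNT/CpG. Both untreated libraries were above all 8 treated ones, and the CpG libraries spanned those of SWNT/LP. Its log2 difference from untreated was -0.46 ± 0.08 with CpG and -0.46 ± 0.08 with nanotubes in lipid-PEG alone, -0.62 ± 0.08 with both and -0.77 ± 0.08 with SWNT/CpG.

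Scin, the actin-severing protein, had 1.71 and 1.58 CPM in untreated cells, from 30 counts in each library. It had 17.6 and 22.6 CPM with CpG, 2.17 and 2.53 with SWNT/LP, 19.7 and 22.7 with CpG+SWNT/LP, and 10.5 and 11.2 with SWNT/CpG. Every CpG library was above every library without CpG, and SWNT/CpG lay between the other 2 CpG groups and the groups without CpG. The log2 differences from untreated were 3.61 ± 0.19, 3.69 ± 0.19 and 2.72 ± 0.19 for CpG, CpG+SWNT/LP and SWNT/CpG.

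Ms4a6c, the MS4A gene, had 7.87 and 8.84 CPM in untreated cells and 7.32 and 9.91 with CpG. It had 5.27 and 5.72 CPM with SWNT/LP, 4.68 and 5.06 with CpG+SWNT/LP, and 4.62 and 4.60 with SWNT/CpG. Untreated and CpG overlapped, with a fitted log2 difference of 0.04 ± 0.16 (95% confidence interval -0.31 to 0.40) that turned negative without untreated replicate 1 (-0.04) or without CpG replicate 2 (-0.19). The 6 nanotube libraries all lay below the 4 libraries without nanotubes. Against untreated it differed by -0.78 ± 0.17 with CpG+SWNT/LP and -0.86 ± 0.17 with SWNT/CpG on the log2 scale. Its sequence is close to those of Ms4a6b and Ms4a6d, so reads may be split between them and its counts are uncertain.

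**Figure D1:**
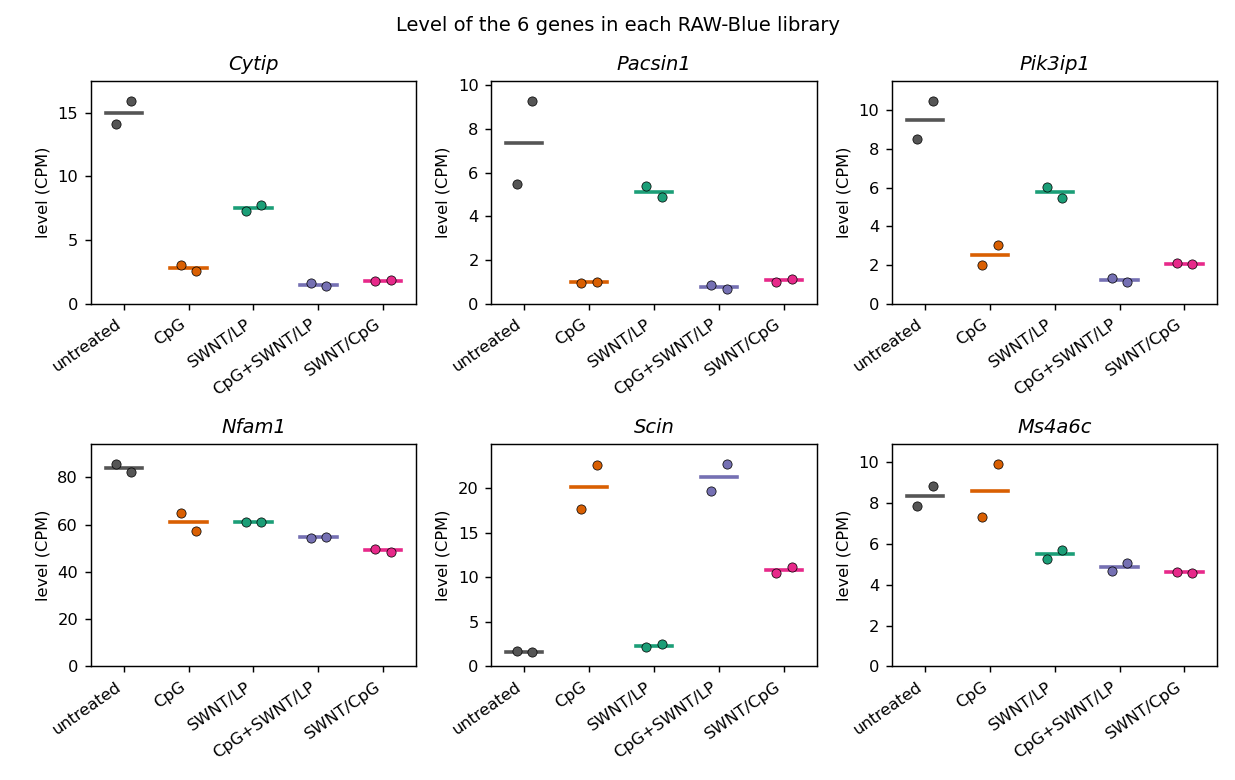
Level of each gene (vertical axis, CPM) in the 10 RAW-Blue libraries by treatment group (horizontal axis), with a point for each library and a line at the mean of the 2. Cytip, Pacsin1 and Pik3ip1 sit low in the 3 groups with CpG, Scin sits high there, and Ms4a6c is low in the 3 groups with nanotubes.

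Of the 6 genes, 5 passed an adjusted p under 0.05 in free CpG against untreated (4 lower and Scin higher), beside 10.8% of all tested genes (5.6% lower, 5.18% higher). All 6 passed in CpG+SWNT/LP and in SWNT/CpG against untreated (5 lower, Scin higher), beside 20.3% (10.1% lower, 10.1% higher) and 23.2% (10.4% lower, 12.8% higher). These are the contrasts the genes were picked on, or share with them the untreated libraries and the oligonucleotide, and nothing is read from the counts.

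**Figure D2:**
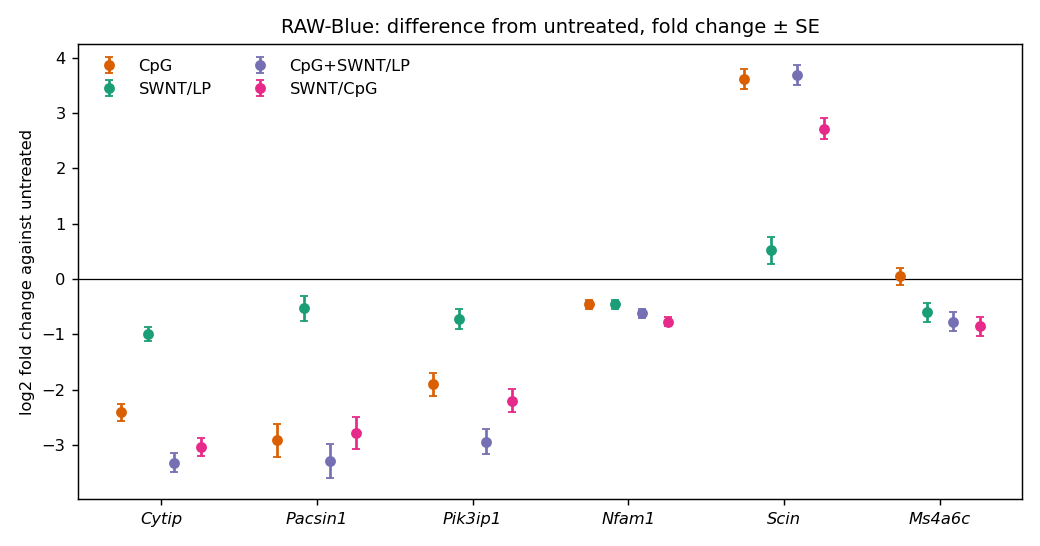
Log2 fold change against untreated (vertical axis) of each gene in the 4 treated RAW-Blue groups; points are edgeR estimates and bars are standard errors. Cytip, Pacsin1 and Pik3ip1 lie between -3.32 and -1.91 in the groups with CpG, Scin between 2.72 and 3.69, and Nfam1 and Ms4a6c within 1 unit of 0.

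CpG can also be compared with no CpG on a background of nanotubes, where the SWNT/LP libraries take the place of the untreated ones. CpG+SWNT/LP against SWNT/LP shares no library with free CpG against untreated, but the description of the set does not say which CpG groups were used to pick it, so the 2 CpG+SWNT/LP libraries may have been. In that comparison Cytip fell by 2.32 ± 0.17 on the log2 scale (SE, edgeR adjusted p = 8.76e-05), Pacsin1 fell by 2.76 ± 0.32 (adjusted p = 0.00129) and Pik3ip1 fell by 2.22 ± 0.24 (adjusted p = 0.000912). Scin rose by 3.17 ± 0.17 (adjusted p = 2.15e-05), 9.02 times. Nfam1 (-0.16 ± 0.08, adjusted p = 0.33, interval -0.34 to 0.02) and Ms4a6c (-0.17 ± 0.18, adjusted p = 0.704, interval -0.56 to 0.22) did not pass. Thus 4 of 6 were called beside 4.82% of all genes, 3 lower (2.37% of all genes) and 1 higher (2.45%), and the 4 calls held in the 9 alternative settings or leave-outs run for each of them. The median log2 difference was -1.20 over the 6 genes and 0.00 over all genes tested.

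SWNT/CpG, nanotubes dispersed in CpG-28, was compared with the same 2 SWNT/LP libraries. Its own libraries may likewise have been used in picking the genes. SWNT/CpG held no lipid-PEG, so this comparison also differs in the coating. Of the 6 genes 5 were called, beside 10.3% of all genes (4 lower beside 4%, Scin higher beside 6.3%). Cytip fell by 2.04 ± 0.17 (adjusted p = 0.000127), Pacsin1 fell by 2.25 ± 0.30 (adjusted p = 0.00123), Pik3ip1 fell by 1.48 ± 0.22 (adjusted p = 0.00219), and Scin rose by 2.20 ± 0.18 (adjusted p = 0.000124). Nfam1 fell by 0.31 ± 0.08 (adjusted p = 0.034). The Nfam1 call was lost with DESeq2 (adjusted p = 0.0653) and without any 1 of the 4 libraries compared (adjusted p from 0.16 to 0.206). Ms4a6c differed by -0.25 ± 0.18 (adjusted p = 0.468).

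Nanotubes in lipid-PEG without CpG, against untreated cells, touched few genes of the genome: 55 of 11514 genes were called, or 0.478%, and only 5 of them (0.0434%) were lower. Of those 5 lower genes, 2 were Cytip and Nfam1. This comparison uses the untreated libraries on which the genes were picked. Picking genes that fall from untreated favours high untreated values, which leans this comparison towards lower. Its p-values and shares are therefore not independent of the choice. Cytip was 2 times lower, with a log2 difference of -0.997 ± 0.131 (edgeR adjusted p = 0.014), and Nfam1 fell by 0.46 ± 0.08 (adjusted p = 0.0393). Pik3ip1 (-0.72 ± 0.18, adjusted p = 0.161), Ms4a6c (-0.61 ± 0.17, adjusted p = 0.199), Pacsin1 (-0.53 ± 0.23, adjusted p = 0.371) and Scin (0.51 ± 0.24, adjusted p = 0.402) did not pass. Both calls were lost without SWNT/LP replicate 1 or 2 (adjusted p from 0.183 to 0.526), and when only the 4 compared libraries were fitted (0.301 for Cytip and 0.497 for Nfam1). Without untreated replicate 1, Pacsin1 (-0.86, adjusted p = 0.0189) and Pik3ip1 (-0.86, adjusted p = 0.0229) were called as well, and without untreated replicate 2 Pik3ip1 (-0.56, adjusted p = 0.0402) and Ms4a6c (-0.52, adjusted p = 0.0491) were.

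A comparison added after the values were seen averages the difference with lipid-PEG nanotubes over cells with and without CpG. It sets SWNT/LP and CpG+SWNT/LP against untreated and CpG, so nanotubes and lipid-PEG enter it together. Here 4 of 6 genes were called, all lower, beside 1.35% of all genes in either direction and 0.174% lower. Cytip fell by 0.95 ± 0.12 on the log2 scale (edgeR adjusted p = 0.00538), Pik3ip1 fell by 0.88 ± 0.16 (adjusted p = 0.0369), Ms4a6c fell by 0.71 ± 0.12 (adjusted p = 0.0197) and Nfam1 fell by 0.31 ± 0.06 (adjusted p = 0.0303). Pacsin1 (-0.45 ± 0.24, adjusted p = 0.457) and Scin (0.30 ± 0.14, adjusted p = 0.39) did not pass. The Cytip call held in all 13 alternatives (adjusted p up to 0.0381). The other 3 were lost when only the compared groups were fitted and without either library of SWNT/LP or of CpG+SWNT/LP. Pik3ip1 and Ms4a6c were lost without CpG replicate 2 also, and Nfam1 without CpG replicate 1 (adjusted p over these from 0.0512 to 0.201). The untreated and CpG libraries of this comparison are those on which the genes were picked. Picking on high untreated values leans it towards lower, and picking on low CpG values leans it towards higher. Its p-values and shares are therefore not independent of the choice. Summed macrophage markers were at 9140 to 9200 CPM with SWNT/LP and 9440 to 9770 with CpG+SWNT/LP, against 9280 to 10100 untreated and 9560 to 9620 with CpG. 

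**Figure D3:**
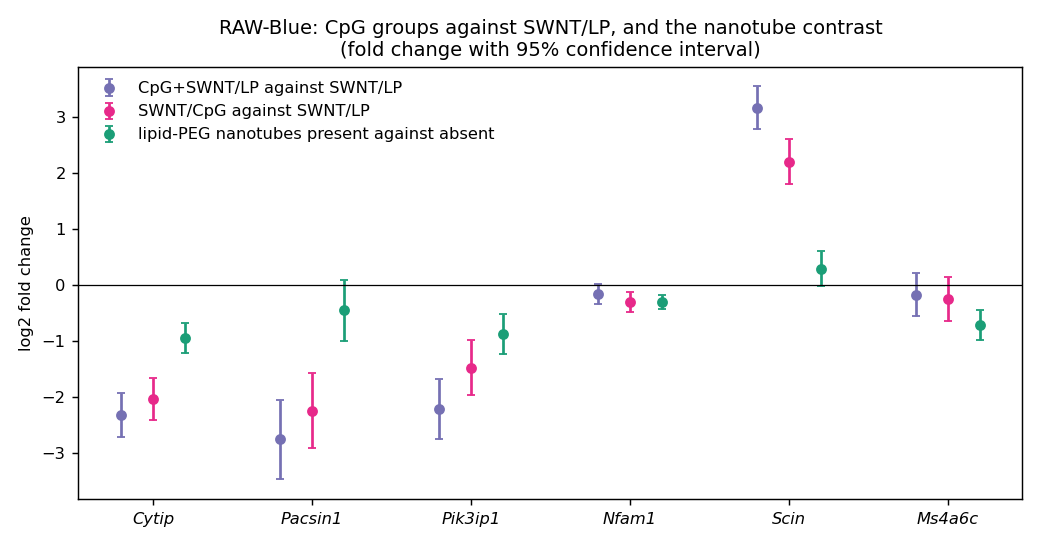
Log2 fold change (vertical axis) of each gene in RAW-Blue for CpG+SWNT/LP against SWNT/LP, SWNT/CpG against SWNT/LP, and lipid-PEG nanotubes present against absent; points are edgeR estimates and bars 95% confidence intervals. The first 2 comparisons put Cytip, Pacsin1 and Pik3ip1 between -2.76 and -1.48 and Scin at 3.17 and 2.20, and the interval of Ms4a6c lies below 0 in the nanotube contrast (-0.71) and spans 0 in the other 2 (-0.17 and -0.25).

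Whether CpG was free, mixed with nanotubes or used to disperse them can be compared among the 3 CpG groups. All 3 received the same oligonucleotide dose, and only CpG+SWNT/LP held lipid-PEG. CpG+SWNT/LP against CpG gave no call for the 6 genes with edgeR or with DESeq2, beside 0.13% of all genes. At an unadjusted p under 0.05 it gave 3 of 6, beside 6.57% of all genes. Those 3 were Pik3ip1 (-1.04 ± 0.27, interval -1.64 to -0.43), Cytip (-0.91 ± 0.20, interval -1.35 to -0.46) and Ms4a6c (-0.82 ± 0.17, interval -1.20 to -0.44), with adjusted p of 0.294, 0.209 and 0.193 (0.0441 for Ms4a6c without the low-count filter). Scin differed by 0.08 ± 0.14 (interval -0.23 to 0.38), Pacsin1 by -0.38 ± 0.43 and Nfam1 by -0.16 ± 0.08. The Scin estimate changed sign without CpG replicate 1 (-0.09) or CpG+SWNT/LP replicate 2 (-0.03).

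Scin was the one gene of the 6 called in SWNT/CpG against both other CpG groups. With SWNT/CpG it was at 10.5 and 11.2 CPM, and in the 4 libraries of free CpG and CpG+SWNT/LP it was at 17.6 to 22.7. It fell by 0.89 ± 0.14 against CpG (edgeR adjusted p = 0.0307) and by 0.97 ± 0.14 against CpG+SWNT/LP (adjusted p = 0.0259), beside 0.842% and 0.825% of all genes called (0.174% and 0.356% lower). With any 1 of the compared libraries left out neither held, at adjusted p of 0.106 to 0.338. Ms4a6c also fell in SWNT/CpG against CpG (-0.90 ± 0.17, adjusted p = 0.049), a call lost without any 1 of the 4 libraries (adjusted p from 0.17 to 0.423). Against CpG+SWNT/LP it differed by -0.08 ± 0.18. The remaining genes did not pass: Cytip differed by -0.62 ± 0.19 from CpG and 0.28 ± 0.21 from CpG+SWNT/LP, Pacsin1 by 0.14 ± 0.40 and 0.51 ± 0.42, Pik3ip1 by -0.29 ± 0.25 and 0.75 ± 0.28, and Nfam1 by -0.31 ± 0.08 and -0.15 ± 0.08. For Pik3ip1 the difference from CpG was 0.04 without CpG replicate 2.

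In K-Luc glioma cells only Pik3ip1 passed the low-count filter. Over 14 libraries with 292 M counts in all, Scin had 23 counts, Cytip 9, Pacsin1 7, Nfam1 3 and Ms4a6c 0, which for the last allows a level of up to 0.0103 CPM (3 counts of the total, counting error only). No treatment difference of these 5 genes was detectable in K-Luc at this depth. Of the 16 macrophage markers 2 averaged at least 1 CPM there.

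Pik3ip1 was the one gene with a level to compare, and in K-Luc it was higher, not lower, with CpG. The 2 untreated libraries had 35.6 and 29.6 CPM, and those with SWNT/LP had 40.6, 29.1 and 29.4. With CpG it had 71.0, 52.5 and 49.8 CPM, with CpG+SWNT/LP 68.7, 56.8 and 49.4, and with SWNT/CpG 73.8, 64.2 and 61.0. Every library with CpG was above every library without it, and the 3 CpG groups overlapped among themselves, as did the other 2. Replicate 1 was the highest library of each of the 5 groups. In untreated, CpG+SWNT/LP and SWNT/CpG it was the library of run 1, and all other K-Luc libraries were of run 2. In those groups replicate number and run cannot be told apart. Summed mesenchymal markers also lay higher in the K-Luc libraries with CpG (11200 to 14000 CPM) than in those without (6990 to 9050), and their part in the result was not tested. In deposited RPKM the untreated means were 7.60 in K-Luc and 2.05 in RAW-Blue.

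CpG raised Pik3ip1 in K-Luc by 0.98 ± 0.18 on the log2 scale (SE, edgeR adjusted p = 0.00144), beside 36.2% of all K-Luc genes called (17.9% higher). CpG+SWNT/LP raised it by 0.88 ± 0.17 (adjusted p = 0.00213) and SWNT/CpG by 1.08 ± 0.17 (adjusted p = 0.000337), beside 33.9% and 43.1% of genes (16.1% and 21.8% higher). Against SWNT/LP the rise was 0.72 ± 0.15 with CpG+SWNT/LP (adjusted p = 0.00409) and 0.91 ± 0.15 with SWNT/CpG (adjusted p = 0.000454), beside 30.8% and 41.7% (15% and 21.5% higher). These 5 calls held in each alternative run, run 2 alone and each library left out included. Such calls are common among K-Luc genes, as the shares show. In run 2 the untreated group was replicate 2 alone, so the run 2 contrasts with untreated rest on that library. SWNT/LP alone differed from untreated by 0.17 ± 0.18 (adjusted p = 0.964, interval -0.24 to 0.57), beside 0.129% of genes called. Among the CpG groups the differences were -0.10 ± 0.15 for CpG+SWNT/LP against CpG, 0.10 ± 0.14 for SWNT/CpG against CpG and 0.19 ± 0.14 for SWNT/CpG against CpG+SWNT/LP. None of them passed in the main fit, beside 0.266%, 14.9% and 17.7% of genes called. Fitted on the compared groups alone, the last was 0.19 ± 0.05 and passed (adjusted p = 0.0078). With a replicate block both SWNT/CpG contrasts passed, at values given in the last section. The run term of the main fit does not cover replicate 1 of CpG, the highest library of its group, which was of run 2. Whether SWNT/CpG differs from the other CpG groups is therefore not settled. Nanotubes present against absent differed by 0.03 ± 0.11 (adjusted p = 0.995), beside 0.564%.

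**Figure D4:**
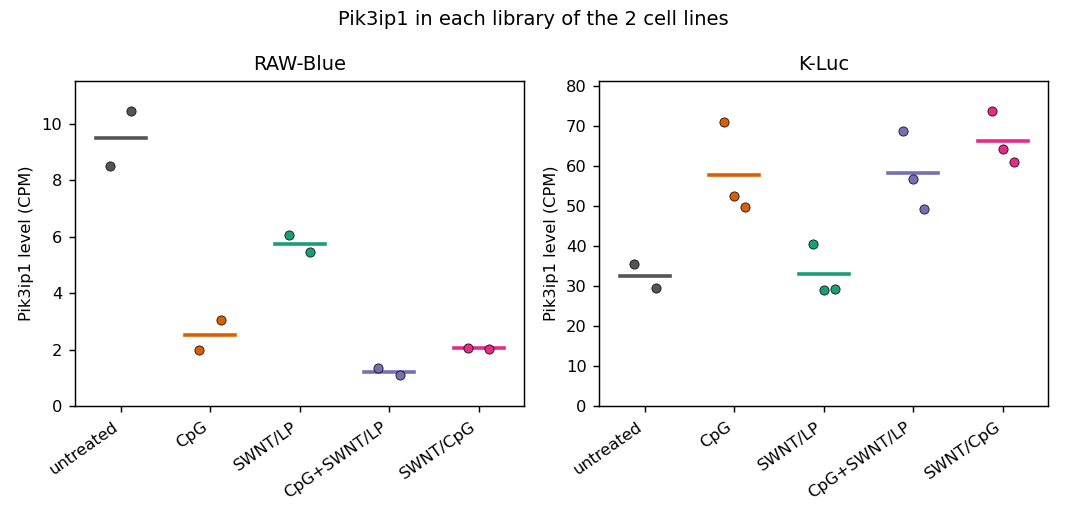
Pik3ip1 level (vertical axes, CPM, on a different scale in each panel) in each library of RAW-Blue and K-Luc by treatment group, with a line at the group mean. In RAW-Blue the groups with CpG lie at 1.11 to 3.05 CPM, below the others, and in K-Luc they lie at 49.4 to 73.8 CPM, above the others.

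The difference between the lines was tested on contrasts other than CpG groups against untreated, in a fit of both lines (13350 genes). The RAW-Blue CpG+SWNT/LP and SWNT/CpG libraries enter these contrasts and may have been used in picking Pik3ip1, so the p-values may not be independent of that choice. For CpG+SWNT/LP against SWNT/LP the log2 fold change of Pik3ip1 was lower in RAW-Blue than in K-Luc by a log2 difference of -2.94 ± 0.35 (edgeR adjusted p = 1.88e-05, beside 12.5% of genes called). For SWNT/CpG against SWNT/LP it was -2.38 ± 0.32 (adjusted p = 2.73e-05, beside 17.7%). The nanotube contrasts did not differ between lines beyond the threshold, at -0.90 ± 0.27 for SWNT/LP against untreated (adjusted p = 0.269, beside 0.187%) and -0.91 ± 0.25 for nanotubes present against absent (adjusted p = 0.099, beside 0.929%). Among the CpG groups the lines differed by -0.93 ± 0.42 for CpG+SWNT/LP against CpG (adjusted p = 0.783, beside 0.12%), -0.37 ± 0.38 for SWNT/CpG against CpG (adjusted p = 0.771, beside 2.62%) and 0.56 ± 0.43 for SWNT/CpG against CpG+SWNT/LP (adjusted p = 0.595, beside 4.96%). The difference between lines for free CpG against untreated was not tested, since RAW-Blue values of that contrast picked the gene.

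Related genes were taken from 6 lists that hold none of the 6 genes. In free CpG against untreated RAW-Blue cells 10 of 131 tested list genes rose and 12 fell, beside 5.18% of all tested genes higher and 5.6% lower, and all tested genes had a median log2 difference of 0.01. The counts for each list below have these same shares as background. Of the cytohesin and leukocyte integrin genes 2 of 21 rose and none fell (median -0.04): the integrin subunit Itgam rose by 0.59 ± 0.12 (edgeR adjusted p = 0.0152) and the integrin-activating GTPase Rap1b by 0.53 ± 0.08 (adjusted p = 0.00344). Icam1, an integrin ligand, differed by -0.29 ± 0.09 (adjusted p = 0.0591) and Cyth4, the cytohesin of blood cells, by -0.21 ± 0.06 (adjusted p = 0.0607). Among F-BAR and endocytosis genes 0 of 22 rose and 2 fell (median 0.03), Srgap2 by a log2 difference of -0.42 ± 0.08 (adjusted p = 0.0123) and the F-BAR kinase Fes by -0.30 ± 0.07 (adjusted p = 0.0303).

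PI3K pathway genes numbered 29, of which 1 rose and 3 fell (median -0.12). The catalytic subunit Pik3cb rose by 0.38 ± 0.09 (edgeR adjusted p = 0.02). The 3 that fell were the Akt phosphatase Phlpp1 (-0.60 ± 0.10, adjusted p = 0.00497), the inositol phosphatase Inpp5d or SHIP1 (-0.33 ± 0.07, adjusted p = 0.0161) and the transcription factor Foxo3 (-0.28 ± 0.07, adjusted p = 0.0367). In K-Luc 8 of 26 tested genes of the list rose with CpG and 2 fell (beside 36.2% of all K-Luc genes called, 17.9% higher; median 0.06, beside 0.01 over all genes), Foxo3 among the former at 0.31 ± 0.08 (adjusted p = 0.00688) and Phlpp1 among the latter at -0.16 ± 0.06 (adjusted p = 0.0376).

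Genes of ITAM receptors and of Syk and NFAT signalling numbered 31, of which 3 rose and 6 fell in RAW-Blue with CpG (median 0.03). The Src kinase Lyn rose by 0.62 ± 0.07 (edgeR adjusted p = 0.000626). The receptor Trem2 differed by -0.63 ± 0.10 (adjusted p = 0.00417) and the phospholipase Plcg2 by -0.40 ± 0.08 (adjusted p = 0.00953). The Fc receptor Fcgr3 differed by -0.42 ± 0.09 (adjusted p = 0.0194), with free CpG only. Against untreated it differed by -0.15 with CpG+SWNT/LP (adjusted p = 0.296) and by 0.19 with SWNT/CpG (adjusted p = 0.169). Of 24 gelsolin-family and actin-turnover genes 3 rose and 1 fell (median 0.01). Gsn, the gelsolin gene itself, was the one that fell, from 482 to 330 CPM (-0.55 ± 0.09, adjusted p = 0.00428), while the related Scin was higher. The 3 that rose, the Arp2/3 subunit Actr3, the actin-binding thymosin Tmsb4x and the capping subunit Capza2, differed by 0.26 to 0.32. Against SWNT/LP, where no untreated library enters, Gsn fell by 0.50 ± 0.09 with CpG+SWNT/LP (adjusted p = 0.0108). With SWNT/CpG it fell by 0.52 ± 0.09 (adjusted p = 0.00443). In CpG+SWNT/LP against SWNT/LP, 5 of 131 genes of all 6 lists rose and 2 fell, beside 2.45% of all tested genes higher and 2.37% lower. Among the named list genes called with free CpG, Gsn, Rap1b, Srgap2, Lyn and Ms4a6d passed there too. The others did not, at adjusted p from 0.0566 (Phlpp1, -0.39) to 0.88 (Fes, -0.04).

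In the MS4A list 4 genes were tested. Ms4a6d rose with CpG by 0.58 ± 0.12 (edgeR adjusted p = 0.0165), and the other 3 did not pass (median of the 4, 0.19). Ms4a6b had a mean of 8.74 CPM untreated and 9.98 with CpG, a difference that did not pass (adjusted p = 0.316), and 6.39 with SWNT/LP and 7.30 with CpG+SWNT/LP. With nanotubes present against absent it fell by 0.45 ± 0.08 (adjusted p = 0.037), and Ms4a6d differed by -0.16 ± 0.09 (adjusted p = 0.46). Over all 6 lists that contrast called 3 of 131 genes higher and 2 lower, beside 1.35% of all tested genes in either direction and 0.174% lower. SWNT/LP against untreated called 1, the actin-binding Lima1 (0.55 ± 0.09, adjusted p = 0.038), beside 0.478% of all tested genes.

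Over the 10 RAW-Blue libraries the log2 levels of Cytip, Pacsin1 and Pik3ip1 correlated with each other at r of 0.96 to 0.97, and with Scin at -0.98 to -0.93. Nfam1 correlated with Cytip at 0.88 and Ms4a6c with Nfam1 at 0.70. The 10 libraries share 5 groups, so these values describe the group pattern and carry no test. Among 10280 genes the nearest to Cytip were Chst10 (r = 0.992), Bmyc (0.987) and Fzd7 (0.985). Those nearest to Pacsin1 were Tnrc18 (0.986), 1810011H11Rik (0.979) and Lzts2 (0.978), and those nearest to Pik3ip1 were 5031414D18Rik (0.985), Unk (0.985) and Fam78a (0.981). Their differences with CpG were all smaller than the member's, from -0.33 for Unk to -1.34 for 5031414D18Rik. Nfam1 was nearest to 9030617O03Rik (0.985), Six5 (0.975) and Myh7b (0.971), and Ms4a6c to Spata13 (0.944), Cluap1 (0.911) and Smarce1 (0.903). The gene nearest to Scin was Slc6a4, the serotonin transporter (r = 0.994), which had 1.68 CPM untreated, 42.6 with CpG and 25.9 with SWNT/CpG, and Jdp2 (0.988) and Cpd (0.967) came next.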

How the data were processed

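The submitters' processing notes name HTSeq 0.6.0, TopHat2 2.0.14 and, as build, mm9. Not given in the sources used here are the authors' annotation, strand option and filters. The deposited count table holds raw read counts for 21669 genes in 24 libraries, made with a stranded mRNA kit per the labels. The authors' deposited RPKM table, rounded to 1 decimal, served only to compare genes per length. Long noncoding genes overlap Cytip, Pik3ip1, Nfam1 and Ms4a6c in RefSeq, and with the strand option unknown their reads cannot be told apart.

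The main test was the quasi-likelihood F test of edgeR 4.0.16 (R 4.3.3) with TMM scaling, a robust dispersion and filterByExpr at its minimum count of 10 and minimum total of 15, and p-values were adjusted by Benjamini-Hochberg over all tested genes and called under 0.05. The RAW-Blue fit held 10 libraries, 11514 genes and 5 residual degrees of freedom, and the K-Luc fit, with a run term, 14 libraries, 12420 genes and 8. Each standard error is the log2 fold change divided by the root of its F value. As alternatives, DESeq2 1.42.0 was run, and edgeR with DESeq2 scaling, with no filter, with a replicate block, on the compared groups alone, for K-Luc without the run term or within run 2, and without each library.

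Genes and lists were chosen with earlier results of these data known. Besides the 6 genes, the text names up to 4 genes a list with the smallest adjusted p in RAW-Blue CpG against untreated, and the 3 genes with the highest Pearson r to each member. C1qa and Lima1 were named after their values were seen.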

Additional observations from a re-analysis of the deposited data

Results flagged for a closer look

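Pik3ip1 differed in the opposite direction in the 2 lines. Its log2 fold change against untreated in K-Luc was 0.98 with CpG, 0.88 with CpG+SWNT/LP and 1.08 with SWNT/CpG, and all K-Luc libraries with CpG were above the untreated ones, while all RAW-Blue libraries with CpG were below theirs. The difference was not tested for these 3 contrasts, because RAW-Blue values in them picked the gene. For the contrasts against SWNT/LP it was tested as an interaction of line and treatment, whose RAW-Blue CpG libraries may also have been used in picking the gene, so that its p-values may not be independent of the choice: RAW-Blue minus K-Luc was -2.94 for CpG+SWNT/LP and -2.38 for SWNT/CpG (edgeR adjusted p = 1.88e-05 and 2.73e-05). Line and treatment time cannot be told apart.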

How the results depend on the processing

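In RAW-Blue, with 10 libraries and 2 a group, the number of the 6 genes called was the same within 1.5 times in 46 of 50 recomputations that kept all libraries. The 4 exceptions were CpG+SWNT/LP against CpG without a low-count filter (1 gene, Ms4a6c, adjusted p = 0.0441), SWNT/LP against untreated with the replicate block (1) or with only the compared groups (0), and nanotubes present against absent with only the compared groups (1). Leaving out 1 library at a time gave 0 to 4 genes for SWNT/LP against untreated, 0 for SWNT/CpG against CpG, 0 for SWNT/CpG against CpG+SWNT/LP, and 1 to 4 for nanotubes present against absent. Leave-outs that turned the sign of a gene were Ms4a6c in CpG against untreated (-0.04 and -0.19, range -0.19 to 0.24), Scin in CpG+SWNT/LP against CpG (-0.09 and -0.03, range -0.09 to 0.27) and Pik3ip1 in SWNT/CpG against CpG (0.04, range -0.56 to 0.04). A group left with 1 library is assumed to vary like the others, and fewer samples also weaken the test.

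For Pik3ip1 in K-Luc, CpG+SWNT/LP against CpG, not called, turned sign with the replicate block (0.07), without the run term (0.01) and without CpG replicate 1 (0.08), and ranged over its leave-outs from -0.20 to 0.08 without a call. Nanotubes present against absent turned sign in 2 leave-outs (-0.02 and -0.05, range -0.05 to 0.12). With the replicate block SWNT/CpG against CpG became 0.27 (adjusted p = 3.66e-05) and SWNT/CpG against CpG+SWNT/LP 0.20 (adjusted p = 0.00048), and with only the compared groups the latter was 0.19 (adjusted p = 0.0078); the cause was not tested. The labels do not say that a replicate number marks a shared culture or day. Deviations of same-numbered libraries correlated at -0.10 to 0.18 in RAW-Blue (median 0.02, 4 of 20 pairs over 0.1) and -0.03 to 0.51 in K-Luc (median 0.20, 20 of 26 pairs over 0.1). Since not every pair was over 0.1, the numbers were not taken as pairs. Yet 10 of 10 RAW-Blue and 13 of 14 K-Luc libraries correlated best, on average, with their own number. That is a hint from the data and not the design. In a group of 2 libraries the deviations from the mean mirror each other, so the RAW-Blue pairs and libraries are not independent counts. In K-Luc, replicate 1 was of run 1 in untreated, CpG+SWNT/LP and SWNT/CpG, so number and run go together there.

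The low counts of Cytip, Pacsin1 and Pik3ip1 with CpG, 13 to 55 a library, limit any comparison among the CpG groups.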
